A study of Gallus gallus with 9 samples.

Results

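The CpGs described here are those for which both cytosines, 1 on each DNA strand, stood in the list of differentially methylated cytosines from chicken sperm. They were found as pairs of listed positions exactly 1 bp apart, with no other listed position 1 bp from either member. This rule gave 164 CpGs, which hold 328 of the 1286 listed cytosines, or 25.5%. Another 19 cytosines lay in longer runs of adjacent positions and were left out, and 939 had no listed position 1 bp away. The lower coordinate of a pair is called the first position and the next base the second position. Which strand each belongs to was not checked, because no genome of the galGal5 build was used here.

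Sperm came from adult Cobb broiler males hatched from eggs incubated in either of 2 ways. The control males (F0C, n = 5) had been kept at 37.8 °C and 56% humidity throughout incubation. The males with embryonic heat conditioning (F0EHC, n = 4) had been held at 39.5 °C and 65% humidity for 12 h per day from embryonic day 7 to day 16, so that temperature and humidity were raised together. The sperm of each bird gave 1 library by reduced representation bisulfite sequencing (RRBS), which sequences DNA fragments rich in CpGs, and F0C and F0EHC males are numbered below as their libraries were labelled.

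A CpG reads the same on both strands, so every such site carries a pair of cytosines that can each be methylated. After DNA replication the new strand starts without methyl groups, and the maintenance methyltransferase copies the mark from the old strand, which keeps both cytosines of most CpGs in the same state. Bisulfite treatment turns unmethylated cytosines into uracil and leaves methylated ones, and because the treated strands are no longer complementary, each strand is read by reads of its own. Both listed positions of a CpG therefore give separate read-based estimates of a methylation level that is usually shared.

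For each position and bird the deposited table held the number of methylated and of unmethylated reads, and the methylation level is the methylated share of reads in percent. Every position had at least 8 reads in every library, the lowest depth among the 328 positions was 8 reads and the highest 642. The median depth of these positions was 37 to 48 reads per library, and their summed depth was 13581 to 17166 reads, out of 58251 to 86529 reads at all listed positions. Reads amplified by PCR without molecular identifiers are not independent molecules, so the tests on reads and the limits for a level of 0 given below cover counting error only. With 43 reads at the median position, a difference of a few percentage points between the strands of 1 bird was not detectable.

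The first question was how closely the strands agreed in level within a bird. Over all 1476 values, 1 for each CpG and library, the median absolute gap between the strands was 3.45 percentage points. The gap was within 5 points for 61.2% of the values, within 10 points for 78.0%, and at least 20 points for 111 values or 7.52%. The first position was higher in 610 values, the second in 589, and both were equal in 277. Of the 164 mean gaps over the 9 libraries, 79 were positive (first position higher) and 85 negative, and the median absolute mean gap was 2.94 points. The mean gap reached 10 points in either direction at 16 CpGs and 20 points at 2.

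The libraries resembled each other in this. The median absolute gap of a library ran from 3.11 points (F0EHC 4) to 4.04 points (F0EHC 1). The correlation of first-position and second-position levels over the 164 CpGs was lowest in F0C 1 at 0.818 and highest in F0EHC 4 at 0.927. These correlations describe 164 CpGs that share a library, and neighbouring CpGs share fragments, so no test is attached to them. Both positions of each CpG had to be listed, which can raise them.

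**Figure D1:**
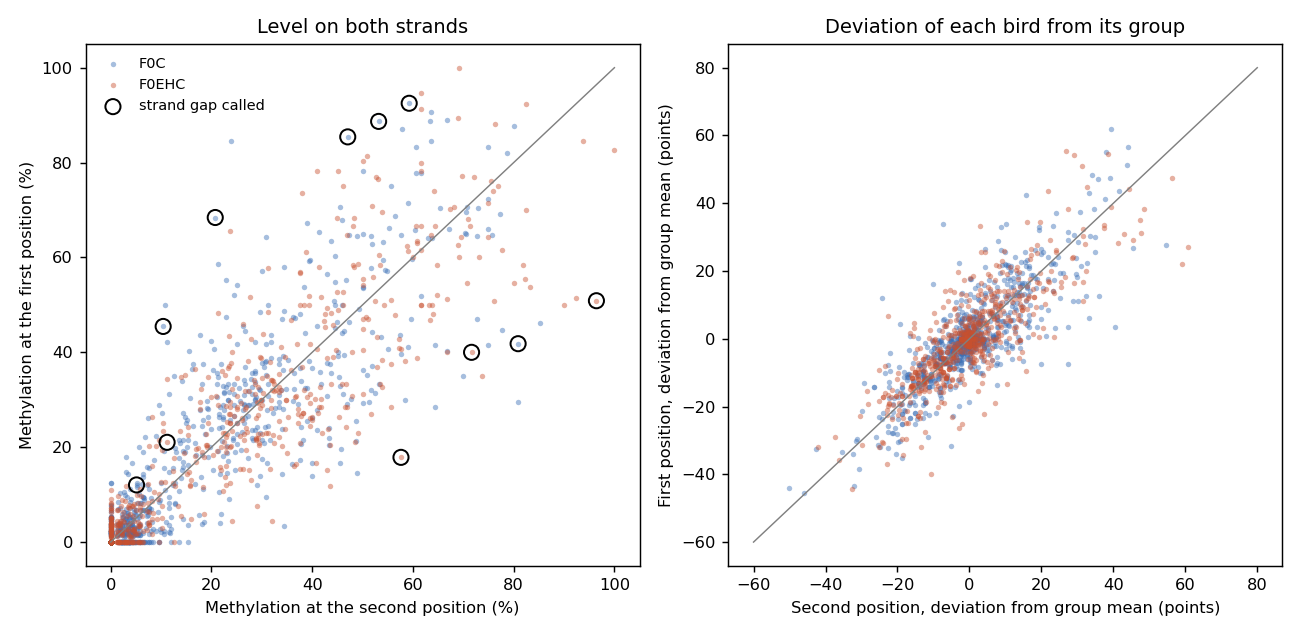
Left, methylation level at the first position (percent, vertical axis) against the level at the second position (percent, horizontal axis), with 1 point for each of the 164 CpGs and 9 libraries, the line of equal levels, and circles around the 11 called gaps. Right, the same after subtracting the group mean at each position (percentage points); in both panels F0C and F0EHC lie along the line, with 78.0% of the gaps within 10 points and a wider scatter at intermediate levels.

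Where a strand had no methylated read, its partner had none or a low level. No methylated read was seen on either strand in 269 values (18.2%), and no value was fully methylated on both. In 228 values methylated reads were seen on 1 strand only, and the level of that strand had a median of 3.33%, while the partner had no methylated read in a median of 45 reads. The level of the methylated strand was 10% or more in 7 of these values and never reached 20%. The highest, 15.4%, came from 13 reads at the second position of a CpG in an intron of MEIS1, a homeobox transcription factor gene, in F0C 3, where the first position had 0 methylated of 68 reads, which allows up to 4.41%. A CpG methylated to 20% or more on 1 strand with no methylated read on the other was thus found in 0 of 1476 values. These include the 269 values with no methylated read on either strand. Both cytosines of each CpG had to be listed, so a CpG methylated on 1 strand alone would mostly be missing here. The 0 is therefore no measure of how common such CpGs are in sperm.

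By the measures used here, birds of a group differed from each other by more than the strands of a bird did. The median over CpGs of the SD between birds of the same group was 12.0 points, taken on the merged level (methylated reads of both strands over all reads of both strands), against a median mean absolute gap of 5.56 points between the strands. The SD exceeded the gap at 150 of the 164 CpGs. An SD over birds and a mean absolute gap between strands are unlike measures, so this is a description only. The strands also shared the differences between birds. When the mean of the bird's group was subtracted at each position, the deviations of both strands had a correlation of 0.825 over all values, between 0.789 (F0EHC 2) and 0.866 (F0C 2) within a library. Across the 9 birds the median correlation for a single CpG was 0.883, with 155 CpGs above 0.5 and 2 below 0. At these CpGs the outlying level of a bird was mostly seen on both strands, in separate reads. Both positions had to be listed for the same contrast, which can raise the correlations of the deviations. They therefore say nothing about CpGs listed on 1 strand only.

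The second question was which gaps exceeded read-sampling error. The reads of both strands were compared within each library by a two-sided Fisher's exact test, with Benjamini-Hochberg adjustment over the 1476 tests and a threshold of 0.05. This test compares reads of 1 library, not birds. It called 11 gaps, or 0.745% of the tests, and 96 tests (6.5%) had an unadjusted p below 0.05. The 11 gaps lay at 7 CpGs, of which 4 had a call in 1 library, 2 in 2 libraries and 1 in 3, and 157 CpGs had none. The level was higher at the first position in 7 of the calls and at the second in 4, and the called gaps measured 6.92 to 47.7 points. F0C 4 held 4 of the calls, F0EHC 4 held 2, F0C 5 and F0EHC 3 held 0, and each of the other libraries held 1. Without F0C 4 the count fell to 5.

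The gaps widened with the level of methylation, and most calls lay between 30 and 70%. Among the 491 values with a merged level above 0 and up to 10%, the median absolute gap was 2.70 points against a median sampling error (the binomial standard error of the gap) of 3.29 points, and 1 gap was called. Among the 316 values between 10 and 30% the median gap was 6.67 points and 2 gaps were called. Among the 364 values between 30 and 70% the median gap was 10.6 points, close to its median sampling error of 10.9 points, and 6 gaps were called. The 36 values above 70% had a median gap of 11.5 points and 2 calls. Relative to its sampling error the gap was also larger in the higher classes, with a root mean square of the standardised gap of 1.13, 1.18, 1.47 and 1.81 in these 4 classes. The 36 values of the highest class are few and not independent, since a CpG can give several. Both calls there were at CpGs described below, SLIT1 in F0C 3 and NXPH3 in F0C 4. The NXPH3 CpG alone entered that class with every control, at merged levels of 73.0 to 83.7%.

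The CpG with calls in most libraries lay in an exon of SLIT1, which encodes a secreted ligand of Robo receptors in axon guidance (chromosome 6, positions 22407810 and 22407811). In F0C 1 to 5 its first position was methylated at 68.4, 55.3, 88.7, 85.4 and 65.2%, and in F0EHC 1 to 4 at 80.4, 0, 0 and 37.8%. The second position stood at 20.8, 22.9, 53.2, 47.1 and 70.3% in F0C and at 50.0, 1.30, 0 and 23.9% in F0EHC. The first position was the higher one in 4 of 5 controls and in F0EHC 1 and 4, whereas F0C 5 had a gap of -5.05 points and F0EHC 2 and 3 had almost no methylation on either strand. The calls were in F0C 1 (Fisher's exact test, adjusted p = 0.00412), F0C 3 (0.0202) and F0C 4 (0.0145), and the mean gap was 21.3 ± 19.7 points (SD, n = 9).

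At an intergenic CpG assigned to the microRNA gene gga-mir-6554 (chromosome 2, positions 6700234 and 6700235) the second position was the higher one. Its level was 46.9, 0, 4.17, 80.9 and 0% in F0C 1 to 5 and 76.0, 53.5, 53.8 and 71.6% in F0EHC 1 to 4. The first position read 29.0, 0, 0, 41.8 and 0% in F0C and 50.9, 33.3, 32.8 and 40.0% in F0EHC. In every bird with more than a trace of methylation the second position was thus above the first, with a mean gap of -17.7 ± 13.8 points (SD, n = 9). The gap was called in F0C 4 and in F0EHC 4 (Fisher's exact test, adjusted p = 0.00412 and 0.0493).

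An intergenic CpG assigned to NXPH3, which encodes a secreted neurexophilin that binds neurexins (chromosome 27, positions 3384879 and 3384880), was the most methylated of the CpGs with a call. Its first position stood at 90.7, 88.7, 87.8, 92.5 and 84.6% in F0C 1 to 5 and its second at 63.6, 63.5, 80, 59.3 and 63.5%. In F0EHC 1 to 4 the first position stood at 41.8, 46.8, 0 and 89.4% and the second at 36.9, 35.7, 3.70 and 68.9%. The first position was higher in all 5 controls and in 3 of 4 F0EHC birds, F0EHC 3 being almost unmethylated. The mean gap was 16.3 ± 12.0 points (SD, n = 9), and F0C 4 carried the call (Fisher's exact test, adjusted p = 0.0493).

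A CpG in an exon on an unplaced contig (positions 7953 and 7954) had its gap in the conditioned birds, where it was methylated. In F0EHC 1 to 4 the first position was at 17.9, 22.9, 18.9 and 16.0%, and the second at 57.6, 49.2, 35.0 and 36.4%. Among the controls F0C 2 alone had methylated reads, with 18.8% at the first and 23.1% at the second position. The second position was the higher one in every F0EHC bird, with gaps of -16.1 to -39.8 points, and the call was in F0EHC 1 (Fisher's exact test, adjusted p = 0.00154, the smallest of all 1476).

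At other CpGs with a call the gaps were small or held by 1 bird. At an intergenic CpG with no assigned gene (chromosome 2, positions 81110922 and 81110923) the median depth was 448 reads at the first and 398 at the second position, the deepest among the CpGs named here, so that gaps of 6.92 points in F0C 2 and 9.83 points in F0EHC 4 were called while its mean gap was 2.92 ± 3.60 points (SD, n = 9). At an intergenic CpG on chromosome 4 (positions 5301248 and 5301249) F0EHC 2 had 50.9% at the first and 96.4% at the second position (Fisher's exact test, adjusted p = 0.00503), and its mean gap of -3.95 points turned to 1.25 points without that bird.

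The largest mean gap of all belonged to a CpG without a call, in an intron of EYA1, a transcriptional coactivator gene of organ development (chromosome 2, positions 117433728 and 117433729). Its first position stood at 41.5, 24.0, 44.7, 29.6 and 46.2% in F0C 1 to 5 and its second at 75.0, 43.2, 77.8, 81.0 and 85.2%. Of the F0EHC birds, F0EHC 2 had 46.9 and 63.3% and the other 3 had no methylated read on either strand. The second position was thus higher in all 6 birds in which the CpG was methylated, by a mean over the 9 birds of -21.4 ± 19.0 points (SD), and the smallest adjusted p of Fisher's exact test was 0.06.

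**Figure D2:**
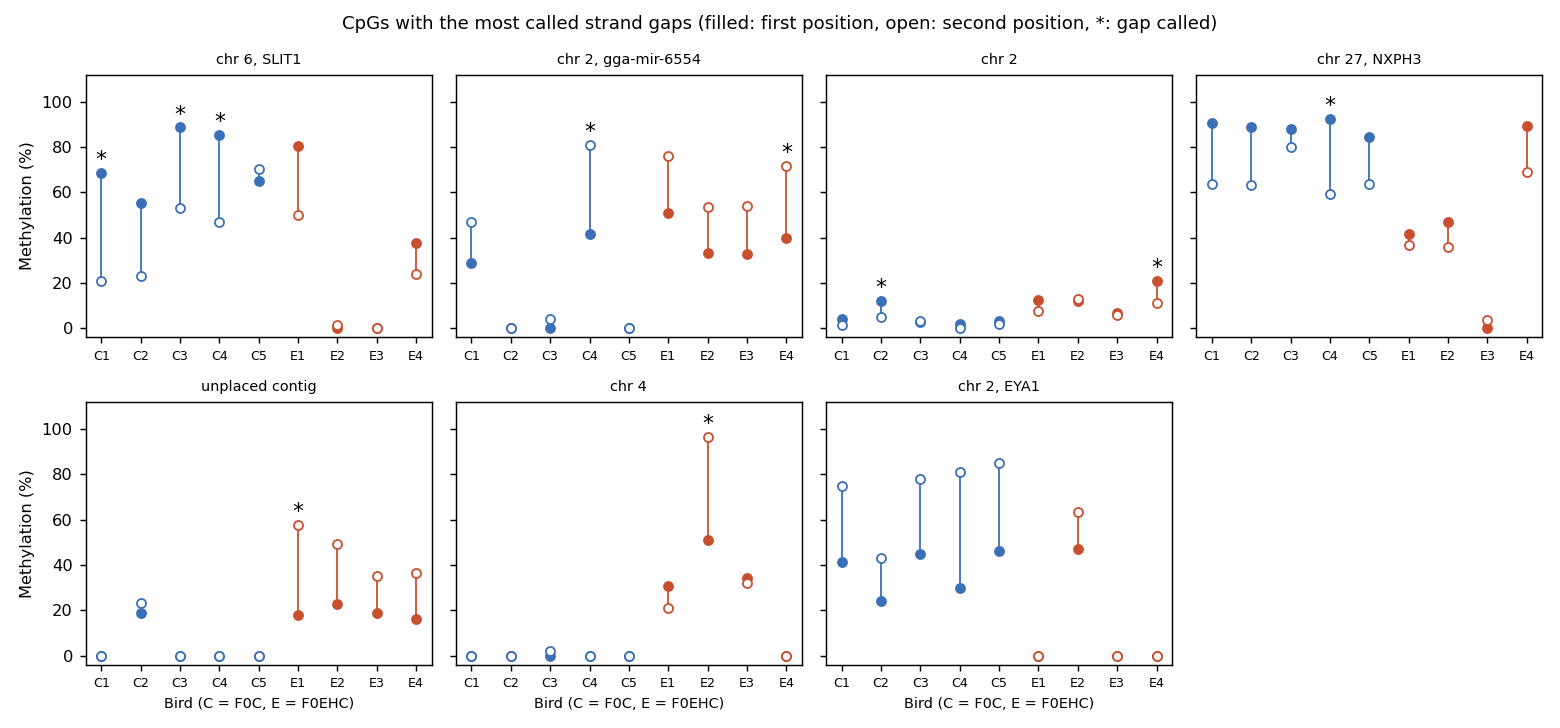
Methylation level (percent, vertical axis) at the first (filled) and second (open) position of the CpGs named by called gaps and mean gap, for each bird on the horizontal axis (C, F0C; E, F0EHC), with a star where the gap was called. At the SLIT1 and NXPH3 CpGs the first position is mostly the upper point, and at the gga-mir-6554 and EYA1 CpGs the second.

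Whether a CpG had a gap in the same direction over birds was tested by flipping the sign of each bird's gap in all 512 ways. With 9 birds the smallest p of this exact sign-flip test is 0.00391, and 13 CpGs at that p would have been needed for any adjusted p below 0.05. A gap of exactly 0 is unchanged by flipping, so a CpG with such a bird cannot reach that p. None of the 164 CpGs passed after Benjamini-Hochberg adjustment (0%, smallest adjusted p = 0.256), and 26 (15.9%) had an unadjusted exact p below 0.05, with the first position higher at 13 of them and the second at 13. The CpG at the smallest possible p, 0.00391 by the exact sign-flip test, lay at the promoter of GIPC3, a PDZ domain gene (chromosome 28, positions 1040381 and 1040382). Its first position stood at 0, 43.7, 21.3, 28.6 and 14.3% in F0C 1 to 5 and at 2.53, 1.04, 24.2 and 2.47% in F0EHC 1 to 4. Its second position stood at 13.6, 57.5, 48.7, 33.3 and 21.6% in F0C and at 7.14, 3.85, 46.7 and 2.70% in F0EHC. The second position was higher in 9 of 9 birds, with a mean gap of -10.8 ± 9.30 points (SD, n = 9), and this CpG was singled out after its values were seen. The unadjusted exact p was 0.0312 for the SLIT1 CpG, 0.0156 for the gga-mir-6554 CpG and 0.00781 for the NXPH3 CpG. For the gga-mir-6554 CpG this was the smallest p that its birds with a gap of 0 allow. The SLIT1, gga-mir-6554 and NXPH3 CpGs were named by their gaps in these same reads, so their p-values are a description only. A Cochran-Mantel-Haenszel test, which pools the reads of the libraries as strata and so counts reads and not birds, called 21 CpGs (12.8%) after the same adjustment, 13 with the first position higher and 8 with the second. The SLIT1 CpG had the smallest adjusted p of that test, 9.61e-12, and 13 of its 21 CpGs were also among the 26. The absolute mean gap of 6 of the 21 was under 10 points.

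Among CpGs with a mean level between 20 and 80%, the smallest mean absolute gap belonged to an exonic CpG on chromosome 25 (positions 2899204 and 2899205). Next came an intronic CpG assigned to PIPOX, the gene of a peroxisomal oxidase (chromosome 19, positions 5931303 and 5931304). Its intron is annotated as 42 of 42 of a transcript, and whether that transcript is of PIPOX was not checked. An exonic CpG on chromosome 20 (positions 10105796 and 10105797) followed. At the PIPOX CpG the first position was at 9.43, 31.6, 41.7, 66.0 and 30.6% in F0C 1 to 5 and the second at 11.6, 23.4, 30.9, 67.2 and 28.8%. In F0EHC 1 to 4 the first position was at 48.2, 76.1, 70.3 and 58.7% and the second at 43.6, 75.5, 67.3 and 49.0%. The merged level of the controls ranged from 10.4 to 66.7% at this CpG, with the strands mostly close and the widest control gap in F0C 3. The other 2 CpGs had single wider gaps as well, of -15.8 points in F0EHC 3 on chromosome 25 and -14.8 points in F0C 1 on chromosome 20.

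Across all CpGs the gaps were somewhat wider than binomial sampling gives. The gap divided by its binomial standard error has a root mean square near 1 under sampling alone, and it was 1.18 (F0EHC 3) to 1.36 (F0C 1) over the libraries. The mean was 1.28 ± 0.0539 in F0C (SD, n = 5) and 1.26 ± 0.0709 in F0EHC (SD, n = 4). The difference of -0.0204 was within the spread between birds (two-sided exact permutation test over the 126 ways of drawing 4 of 9 libraries, p = 0.635, adjusted p = 0.790). The smallest possible p of this test is 0.00794. Adjustment was over 6 main tests of library values, 1 of them chosen after seeing the data. Tests at alternative settings were not part of it. The mean absolute gap, 6.37 ± 0.605 points in F0C and 6.52 ± 0.838 points in F0EHC, differed by 0.150 points in the opposite direction (exact permutation p = 0.746).

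As a comparison within the same table, the same test was run on 123 pairs of neighbouring listed positions 2 to 10 bp apart (median 5 bp) that belonged to no strand pair. Of their 1107 values, 37 (3.34%) had an unadjusted Fisher p below 0.05, against 96 of 1476 (6.5%) for the strand pairs. The share was 4.27 to 9.15% for strand pairs and 1.63 to 6.50% for neighbours over the libraries, and it was higher for strand pairs in 8 of 9. The mean difference of 3.16 percentage points exceeded the spread between libraries (two-sided exact sign-flip test, p = 0.00781, adjusted p = 0.0238). With neighbours up to 25 bp apart the difference was 1.05 points and did not pass (p = 0.25, exact). After Benjamini-Hochberg adjustment 9 of the 1107 neighbour values were called, against 11 of the 1476 strand values. The higher share of strand pairs was thus seen at unadjusted p only. The sets differed in other respects whose part in this was not tested. Neighbours had a median level of 4.24% and 52 reads against 8.67% and 43 reads for the strand pairs, and among values with a merged level of 10 to 90%, a choice made after seeing the data, the difference was 4.55 points (exact sign-flip p = 0.00391). The median absolute log2 ratio of reads between neighbours was 0, so that neighbouring positions mostly had the same read number. Positions this close can be covered by the same reads, whereas Fisher's test takes both sites as separate reads. The difference in shares is therefore not a like-for-like measure of disagreement. The deviations of neighbours from the group mean had a correlation of 0.910 against 0.825 for the strands of a CpG.

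**Figure D3:**
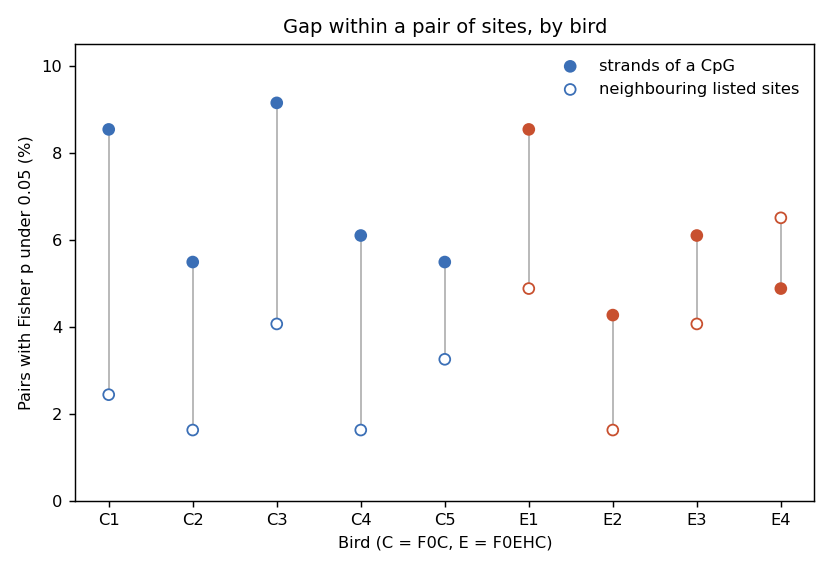
Share of pairs with an unadjusted Fisher p below 0.05 (percent, vertical axis) in each bird (horizontal axis; C, F0C; E, F0EHC), for the strands of a CpG (filled) and for neighbouring listed positions 2 to 10 bp apart (open). The strands have the higher share in 8 of the 9 birds, all but F0EHC 4.

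The third question was how reads were divided between the strands. The median log2 ratio of reads at the first to the second position was centred near 0. Its mean over the 9 libraries was -0.0043, positive in 4 of 9 (two-sided exact sign-flip test, p = 0.875). The groups differed in this ratio by -0.01 (exact permutation p = 0.659, adjusted p = 0.790). Of the 164 CpGs, 83 had a median ratio above 0, 76 below 0 and 5 at 0.

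Single CpGs nonetheless had unequal strands, and repeatedly so over birds. The first position was the deeper one in all 9 libraries at 22 CpGs and the second at 19, and 13 CpGs were unequal by at least 2-fold in the median. A called gap in level was found at 0 of the 13, against 4.27% of all 164 CpGs, so that this count says little. The log2 ratio over CpGs had an SD of 0.58 to 0.71 in a library. The SD that read sampling gives a single CpG had a median of 0.30 to 0.34. Shallow CpGs lie above that median, so these are unlike measures. The ratios of different libraries were correlated over the 164 CpGs with coefficients of 0.415 to 0.736, also between birds of different groups (0.478 to 0.657 over 20 library pairs). These coefficients are a description of CpGs that share reference sequence and fragments.

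The CpG with the deepest first position relative to its second was an intergenic CpG assigned to AIF1L (chromosome 17, positions 6538465 and 6538466), with a median of 47 and 18 reads and a median log2 ratio of 1.28. The MEIS1 CpG named above (chromosome 3, positions 10495061 and 10495062) followed with 61 and 26 reads (log2 ratio 1.25), and then an intronic CpG of RAB11FIP3, a Rab11 effector gene (chromosome 14, positions 13070694 and 13070695), with 67 and 34 reads (1.03). At the MEIS1 CpG the strands were methylated at 20.4 and 43.3% in F0C 1, 21.4 and 30.0% in F0C 2, 67.9 and 45.8% in F0C 4 and 60.3 and 44.4% in F0C 5, so the direction of its gap changed between birds. Of the conditioned birds F0EHC 3 alone had methylated reads there, with 22.8 and 29.2%.

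The deepest second positions were at a CpG annotated to the promoter of SMG6, an endonuclease gene of nonsense-mediated mRNA decay (chromosome 19, positions 5614735 and 5614736), with 21 and 57 reads (log2 ratio -1.38), at an intergenic CpG assigned to SEZ6, a neuronal membrane protein gene (chromosome 19, positions 5919055 and 5919056), with 29 and 64 reads (-1.37), and at an intronic CpG of EFNA2, the gene of ephrin A2 (chromosome 28, positions 3133277 and 3133278), with 21 and 54 reads (-1.32). At the SMG6 CpG methylation was nearly confined to F0EHC 2, with 38.7% at the first and 29.9% at the second position. In F0C 5 the second position had 1.54%, and the other 7 birds had no methylated read on either strand, which allows merged levels of up to 2.86 to 4.76% (3 counts of the reads). At the SEZ6 CpG the shallower first position was higher in every bird with methylated reads. It stood at 5.88, 37.5, 67.3, 36.4 and 58.6% in F0C 1 to 5 against 2.17, 21.9, 39.1, 20.4 and 21.3% at the second. The mean gap was 12.6 ± 13.4 points (SD, n = 9) and did not pass (exact sign-flip test, unadjusted p = 0.0312, adjusted p = 0.256). That unadjusted p is the smallest that its birds with a gap of 0 allow.

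The size of the inequality, whatever its direction, was looked at after the data had been seen. The median absolute log2 depth ratio was 0.35 ± 0.01 in F0C (SD, n = 5) and 0.46 ± 0.02 in F0EHC (SD, n = 4), and the groups did not overlap (difference 0.11, two-sided exact permutation test, p = 0.00794, the smallest possible, adjusted p = 0.0238). The adjustment does not cover the choice of this measure after the data were seen. At the 91 CpGs with at least 20 reads on both strands in every library the difference was 0.03 and did not pass (exact permutation p = 0.103). The median depth of a library was 37 to 48 reads in F0C and 43 to 48 reads in F0EHC, and whether depth plays a part was not tested. What sets the result apart between these sets of CpGs was not tested. In median depth the paired positions did not stand apart from the other listed positions (difference -0.667 reads, exact sign-flip p = 0.312), while in mean depth they were 13.7 reads lower (difference -13.7, exact p = 0.00391, the smallest possible).

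**Figure D4:**
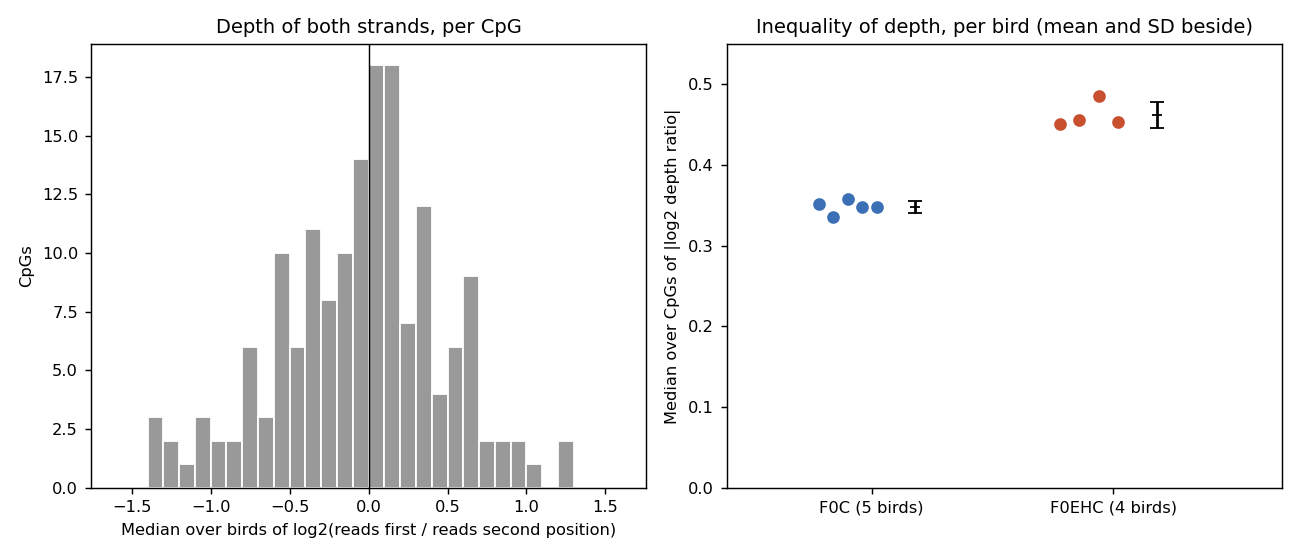
Left, number of CpGs (vertical axis) by the median over birds of the log2 ratio of reads at the first to reads at the second position (horizontal axis), for the 164 CpGs, with a line at 0. Right, the median over CpGs of the absolute log2 depth ratio for each bird (points) with the group mean and SD beside them, where the 4 F0EHC birds lie above the 5 F0C birds (0.46 ± 0.02 against 0.35 ± 0.01).

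The last question was the direction and level by group on each strand. The list was made by calling cytosines that differed between F0C and F0EHC in these same libraries, so the group differences below chose the members and are given as values without a test. By the merged level, 93 of the 164 CpGs (56.7%) were higher in F0EHC and 71 were lower. With 1 CpG per locus the higher ones were 60 of 122 (49.2%), so the majority rested on loci with several pairs. Of the listed cytosines that belong to no pair, 582 of 958 (60.8%) were higher. The sign of the group difference was the same on both strands at all 164 CpGs, a count that the listing of both positions largely fixes. The difference at the first position and at the second had a correlation of 0.958 over the CpGs. That value is raised by the listing itself, which holds clear differences of both signs. The median absolute discrepancy between the positions was 3.79 points. The discrepancy was within 10 points at 85.4% of the CpGs and 31.1 points at most, and the difference was larger at the first position for 81 CpGs and at the second for 83.

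The CpGs higher in F0EHC were mostly near unmethylated in the controls, and the CpGs lower in F0EHC were the reverse. The median level of the 93 higher CpGs was 5.29% in F0C and 28.7% in F0EHC, and their differences ran from 7.69 to 58.3 points with a median of 21.0. Their mean level was 10.02, 6.26, 5.05, 9.26 and 9.53% in F0C 1 to 5 and 35.2, 31.0, 32.5 and 29.5% in F0EHC 1 to 4. The median level of the 71 lower CpGs was 26.8% in F0C and 5.07% in F0EHC, a median difference of -20.6 points. Their mean level was 23.2, 27.03, 31.6, 30.3 and 29.6% in F0C and 7.83, 8.25, 7.34 and 5.53% in F0EHC.

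The birds of the groups did not overlap in merged level at 35 of the 164 CpGs (21.3%), 22 higher and 13 lower in F0EHC. Among all 1286 listed cytosines the groups did not overlap at 20.6%, with 12.5% being higher and 8.09% lower in F0EHC. Counted within each direction that is 21% of the higher and 20.1% of the lower cytosines. The merged level draws on the reads of both strands, whereas the list counts single cytosines. Taken as single cytosines, the groups did not overlap at 66 of the 328 paired ones (20.1%) and at 199 of the 958 others (20.8%). The share among paired cytosines thus lay near that of the whole list. The groups did not overlap on both strands at 16 CpGs, 10 higher and 6 lower, and on 1 strand only at 34. A split within a group was common. At 40 CpGs a control had no methylated read on either strand while another control was at 20% or more, and at 34 CpGs the same held among the conditioned birds, which together makes 68 CpGs (41.5%). All 5 controls had no methylated read at 1 CpG, and all 4 conditioned birds had none at 7.

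**Figure D5:**
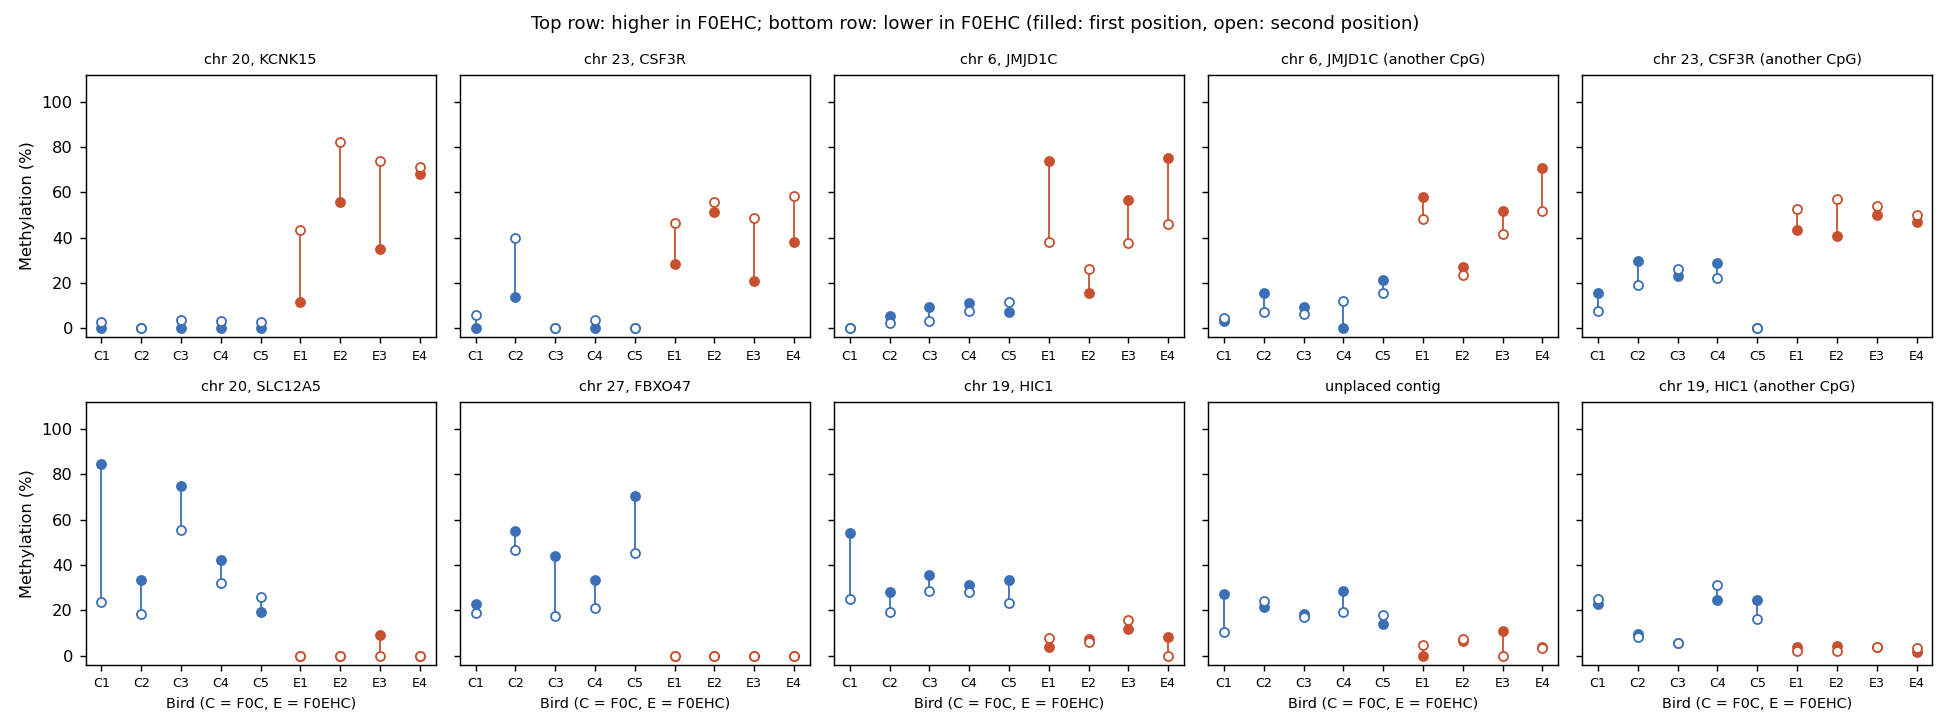
Methylation level (percent, vertical axis) at the first (filled) and second (open) position of 10 CpGs whose groups did not overlap on either strand, namely those with the largest group difference (5 higher in F0EHC in the top row, 5 lower in the bottom row), for each bird on the horizontal axis (C, F0C; E, F0EHC). Both positions of a CpG place all F0C birds on 1 side of all F0EHC birds, as the choice of these CpGs requires.

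The largest difference toward F0EHC among CpGs whose groups did not overlap on either strand was at an intergenic CpG assigned to KCNK15, a potassium channel gene (chromosome 20, positions 5470992 and 5470993). Its first position had no methylated read in F0C 1 to 5, which allows up to 8.33 to 13.6% (3 counts of the reads), and 11.8, 55.6, 35.0 and 68.2% in F0EHC 1 to 4. Its second position stood at 2.78, 0, 3.57, 3.23 and 2.94% in F0C and at 43.6, 82.2, 73.7 and 71.0% in F0EHC. The merged level was 1.42 ± 0.795% in F0C (SD, n = 5) and 59.7 ± 18.2% in F0EHC (SD, n = 4), and the second position was above the first in all 4 F0EHC birds.

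A pair of such CpGs on chromosome 23 was assigned to CSF3R, which encodes the receptor of granulocyte colony-stimulating factor. At the intergenic one (positions 4024359 and 4024360) the merged level was 2.94, 28.6, 0, 2.00 and 0% in F0C 1 to 5 and 40.5, 53.5, 38.9 and 48.9% in F0EHC 1 to 4. F0C 2 stood well above the other controls there, with 14.0% at the first and 40.0% at the second position, and still below the lowest F0EHC bird on each strand. At the CpG within an intron (positions 4030000 and 4030001) the merged level was 12.1, 24.7, 24.2, 26.8 and 0% in F0C and 47.5, 46.2, 51.9 and 48.2% in F0EHC. The F0EHC birds were close to each other at that CpG, and the controls were not.

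Of the 7 paired CpGs in an intron of JMJD1C, which encodes a Jumonji-domain histone demethylase family member, 2 were among these 5 higher CpGs (chromosome 6, positions 7933623 and 7933624, and 7933614 and 7933615). At the former the first position was at 0, 5.26, 9.52, 11.1 and 7.14% in F0C 1 to 5 and at 73.7, 15.4, 56.7 and 75.0% in F0EHC 1 to 4. The second position was at 0, 2.38, 3.23, 7.69 and 11.5% in F0C and at 37.9, 26.3, 37.5 and 46.2% in F0EHC. F0EHC 2 was the lowest conditioned bird on both strands, and the only one in which the second position was the higher. Over all 7 CpGs, which span positions 7933589 to 7933629, the mean level was 9.22% at first and 7.30% at second positions in F0C and 44.6 and 39.4% in F0EHC.

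Among CpGs whose groups did not overlap on either strand, the largest difference in the other direction was at a CpG in an intron of SLC12A5, the neuronal potassium-chloride cotransporter gene (chromosome 20, positions 10786673 and 10786674). The merged level was 47.1, 23.5, 61.5, 36.6 and 22.4% in F0C 1 to 5. In F0EHC 1, 2 and 4 there was no methylated read, which allows up to 15.8, 6.82 and 6.52%, and F0EHC 3 had 5.71%. Depth was low at this CpG, from 8 to 31 reads for a position in a bird.

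A CpG in an intron of FBXO47, an F-box gene required for meiosis in mouse (chromosome 27, positions 4483812 and 4483813), was methylated in every control and in no conditioned bird. Its first position stood at 22.7, 55.2, 43.8, 33.3 and 70.6% in F0C 1 to 5 and its second at 18.8, 46.7, 17.6, 21.1 and 45.5%. The first position was the higher in each of the 5 controls. The F0EHC birds had no methylated read on either strand, which allows merged levels of up to 5.66, 16.7, 9.38 and 7.50% in F0EHC 1 to 4.

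A pair of nearby CpGs in an intron of HIC1, a zinc finger repressor gene, was also lower in F0EHC (chromosome 19, positions 5522362 and 5522363, and 5522374 and 5522375). At the former the merged level was 38.7, 23.8, 33.0, 30.0 and 29.0% in F0C 1 to 5 and 5.11, 6.67, 13.7 and 4.24% in F0EHC 1 to 4. At the latter it was 24.0, 8.73, 5.49, 27.2 and 21.0% in F0C and 2.92, 3.31, 3.92 and 2.54% in F0EHC. F0C 2 and F0C 3 were close to the conditioned birds at the latter CpG and not at the former. A promoter CpG on an unplaced contig (positions 6850 and 6851) completed the 5 lower CpGs, with merged levels of 19.3 ± 3.36% in F0C (SD, n = 5) and 4.67 ± 1.95% in F0EHC (SD, n = 4).

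The paired CpGs were spread over 122 loci (listed positions within 500 bp of each other), of which 104 held 1 pair and 8 held at least 3. Those 8 loci, looked at because of their number of pairs, held 40 of the 164 CpGs. A called strand gap was found at 0 of the 40, against 4.27% of all 164. Of the 8, 7 were higher in F0EHC. An intergenic locus assigned to gga-mir-1780 (chromosome 23, positions 5056086 to 5056221) had 7 pairs, with mean levels at first and second positions of 2.76 and 2.85% in F0C and 19.0 and 22.5% in F0EHC. The higher level was carried by F0EHC 1 to 3, at 23.6, 28.2 and 28.6%, while F0EHC 4 had 1.24%, below all 5 controls (1.67 to 4.87%).

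An intergenic locus on chromosome 6 (positions 1549830 to 1549896) with 6 pairs was the most methylated. Its mean levels were 30.2, 1.31, 1.46, 25.1 and 68.8% in F0C 1 to 5 and 69.4, 68.7, 77.1 and 66.5% in F0EHC 1 to 4. The controls spread from near 0 to the level of the conditioned birds, which were all alike. In an intron of MFSD2A, a lysophospholipid transporter gene (chromosome 23, positions 5557393 to 5557411), the 3 paired CpGs averaged 4.54, 1.55, 2.87, 19.2 and 3.76% in F0C 1 to 5 and 58.9, 20.7, 16.1 and 4.07% in F0EHC 1 to 4. F0EHC 1 was the highest bird by far, and F0EHC 3 and F0EHC 4 lay within the range of the controls, whose highest was F0C 4.

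The 1 locus of the 8 that was lower in F0EHC lay at the promoter of GIPC3, which is needed for hearing in mouse and human (chromosome 28, positions 1040381 to 1040393). Its 3 paired CpGs averaged 16.2, 48.9, 35.7, 35.1 and 28.0% in F0C 1 to 5 and 10.6, 4.74, 31.5 and 5.65% in F0EHC 1 to 4. F0EHC 3 was within the range of the controls and the other 3 conditioned birds were below it.

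By the study's annotation of listed positions, 72 of the 164 CpGs (43.9%) were intergenic, 51 (31.1%) intronic, 23 (14.0%) exonic, 13 (7.93%) at promoters and transcription start sites and 5 (3.05%) at transcription termination sites. Both positions of a CpG had the same class in all 164. For the other listed cytosines the shares were 33.2, 35.5, 12.0, 15.3 and 3.97%, so the paired CpGs had a smaller share at promoters and a larger one between genes. These shares were not tested, because CpGs of a locus are not independent. Of the 13 promoter CpGs, 4 were higher and 9 lower in F0EHC. Chromosomes 6, 20 and 23 held 14 pairs each, which is 35.0, 36.8 and 37.3% of their listed cytosines taken up by pairs. On chromosomes 6 and 23 13 of the 14 were higher in F0EHC, and the 13 on chromosome 6 came from 2 loci, of 7 and 6 pairs. Those on chromosome 23 included the 7 pairs of the gga-mir-1780 locus and the 3 pairs of the MFSD2A locus.

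A gene name was assigned to 110 of the CpGs, 81 different genes in all. Some are described here for their known roles. In an intron of DNMT3B, a de novo DNA methyltransferase gene (chromosome 20, position 10454162), the merged level was 10.98 ± 15.1% in F0C (SD, n = 5) and 40.2 ± 13.7% in F0EHC (SD, n = 4), and the mean strand gap was -9.26 ± 11.1 points (SD, n = 9).

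Homeobox transcription factor genes among the assigned names were HOXC4, HOXC13, MEIS1, CUX1 and LMX1A, each with 1 paired CpG. All 5 CpGs were lower in F0EHC, where 71 of all 164 were. These genes were picked after their values were seen, and the count was not tested. In exons of HOXC4 and HOXC13, homeobox genes of axial patterning, the level went from 11.2 ± 11.1% to 1.02 ± 0.732% and from 17.8 ± 15.0% to 3.79 ± 1.43%. In introns of CUX1 and LMX1A it went from 15.4 ± 14.2% to 0% and from 7.87 ± 6.09% to 0.724 ± 0.582%. Other developmental genes lay in both directions. At FOXD1, a forkhead factor gene, an intergenic CpG went from 2.72 ± 1.63% to 18.7 ± 11.8%, and the groups did not overlap there. The intergenic CpG of BMP4, a secreted bone morphogenetic protein gene, went from 17.3 ± 23.2% to 0.667 ± 1.33%, and that of DHH, the desert hedgehog ligand gene known for its role in testis development, from 2.97 ± 2.12% to 17.1 ± 9.58%. The 2 CpGs of FZD2, a Wnt receptor gene, went from 11.8 ± 14.1% to 1.30 ± 0.972% in an intron and from 20.8 ± 12.5% to 4.36 ± 1.76% in an exon. In all of these the first value is the mean of 5 F0C birds and the second that of 4 F0EHC birds, each with its SD. The spread among controls was as large as the mean itself at the HOXC4, BMP4 and intronic FZD2 CpGs.

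The deposited data also held a table of differentially methylated regions, in which a level is averaged over several cytosines. Of the 164 CpGs, 90 (54.9%) lay in 51 of these regions, against 50.1% of the other listed cytosines. All 90 had the sign of their region, which was called on the same libraries. The median absolute group difference was 20.4 points for the CpGs and 14.7 points for the regions that hold them. Over the 90 CpGs the level of the CpG and that of its region had a correlation of 0.718 to 0.827 within a library, which shares reads between both measures.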

How the data were processed

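Genomic DNA of the sperm of each male was sequenced by RRBS. Per the study's methods and the submitters' processing notes, the authors trimmed reads with Trim Galore, aligned them to galGal5 with Bismark and Bowtie, and listed single sites called with edgeR and regions called by metilene. The deposited tables give counts of methylated and unmethylated reads per site and bird, and levels in percent for sites and regions. The table lists sites called for this contrast on these libraries, and in it every site had at least 8 reads in every library. The number of columns of per-sample values not used was 0.

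Merged levels and strand gaps were computed here from the counts, and levels of single positions were the deposited percentages. This was done in Python 3.11.15 with numpy 2.4.6, pandas 2.3.3 and SciPy 1.17.1, and figures were drawn with matplotlib 3.10.9. Tests were Fisher's exact test within a library, exact sign-flip tests over 9 libraries and exact permutation of 4 of 9 libraries. Benjamini-Hochberg adjustment covered the Fisher tests, the tests per CpG and the main tests of library values. The p-values printed for alternative settings of library values are unadjusted. The procedure was tested on simulated data. Birds are the replicates of the tests over libraries. No 2 libraries were duplicates, with identical counts at no more than 1.09% of sites. The CpGs named are the 8 with most libraries with a called gap (ties by mean gap), the 5 higher and 5 lower with the largest difference among those not overlapping on either strand, the 3 most unequal in depth in each direction, and the 3 with the smallest gap at 20 to 80%. Of the 8, 1 CpG is counted in the totals and not reported here by itself. The loci of 3 or more pairs, the GIPC3 gap and the genes described by role were added after values were seen. Gene names and classes are from the study's annotation of listed positions, and 69 of the 81 names are in the RefSeq table. Name and class are separate entries there, and whether an intron, exon or promoter belongs to the named gene was not checked. The members, lists and tests were chosen with earlier results of these data known. Alternatives were other depth minimums, level windows, distances, tests, 1 CpG per locus and leaving out each library.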

Additional observations from a re-analysis of the deposited data

Results flagged for a closer look

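Among groups of 4 or 5 birds, the highest or lowest bird was set against the rest by Dixon's ratio at its 95% critical value. Of the 88 groups examined 18 had a bird past that value, where chance gives about 1 in 20 for continuous values. That rate is no measure here, since in many of these groups every other bird was at exactly 0 and the CpGs had been picked for large gaps or differences. The values are given with no explanation.

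For library measures, the correlation between the strands was 0.818 in F0C 1 against 0.877 in the next library of its group, and the median absolute log2 depth ratio was 0.49 in F0EHC 3, above the other conditioned birds.

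For merged levels, a single conditioned bird was methylated where the others of its group had no methylated read in several cases. F0EHC 2 had 32.7% at the SMG6 CpG, 27.2% at the SEZ6 CpG, 54.8% at the EYA1 CpG and 0.980% at the EFNA2 CpG. F0EHC 3 had 24.7% at the MEIS1 CpG and 5.71% at the SLC12A5 CpG. Among the controls, F0C 2 had 28.6% at the intergenic CSF3R CpG, 21.1% at the exonic CpG on an unplaced contig and 9.01% at the deep intergenic CpG on chromosome 2, in each case the highest control. F0C 2 also had the lowest control level at the KCNK15 CpG, 0%. F0C 5 had 1.11% at the SMG6 CpG and F0C 3 had 1.49% at the intergenic CpG on chromosome 4, where the other controls had none.

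For strand gaps, F0C 5 had -5.05 points at the SLIT1 CpG, where the next control had 32.4 points. F0C 2 had -4.33 points at the exonic CpG on the unplaced contig, F0C 3 had -2.17 points at the chromosome 4 CpG and F0EHC 2 had -16.5 points at the EYA1 CpG. In these last 3 cases the other birds of the group were unmethylated on both strands and so had a gap of 0.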

How the results depend on the processing

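The 11 called gaps became 96 with unadjusted p, 17 with 1 CpG per locus, 18 at merged levels of 10 to 90% (chosen after seeing the data), and 5 to 12 with each library left out. The 0 CpGs with a gap in 1 direction became 21 by the Cochran-Mantel-Haenszel test and 26 with unadjusted exact p. It was 0 to 0 with a library left out, which 8 birds can hardly exceed and which says nothing about stability. The group difference in strand disagreement, -0.0204, became 0.150 points as a mean absolute gap and ran from -0.0487 to 0.00839 with libraries left out, turning positive without F0EHC 3. The median log2 depth ratio ran from -0.0102 to 0.00972, positive without F0C 3 or F0EHC 4, and its group difference from -0.0311 to 0.0220, positive without F0EHC 4. The group difference in unequal depth, 0.11, was 0.0350 with at least 20 reads and 0.106 to 0.117 with libraries left out. The difference between strand pairs and neighbours was 1.05 points with neighbours up to 25 bp apart and 2.79 to 3.76 with libraries left out. The depth difference of paired positions was -13.7 reads by the mean and -1 to -0.375 with libraries left out. The 93 higher CpGs became 50 of 91 with at least 20 reads, 60 of 122 (49.2%) with 1 CpG per locus, and 92 to 93 with libraries left out. The mean gap of the chromosome 4 CpG ran from -5.69 to 1.25, turning positive without F0EHC 2. The cause of these changes was not tested.

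With replicate numbers as a block over the 4 numbers both groups share, the group differences were -0.0336 in strand disagreement (exact p = 0.5), -0.01 in the depth ratio (exact p = 1) and 0.113 in unequal depth (exact p = 0.125, the smallest it allows). Same-numbered birds correlated at 0.191, 0.0278, 0.0376 and 0.0440, with 1 of 4 best with its own number. Resting on 4 numbers, this check cannot decide whether the numbers pair birds. The depth limits single strands. For a cytosine with no listed position 1 bp away, the list gives no level of the other strand.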
